A study of Mus musculus with 20 samples.

Results

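Serpins of clade B are protease inhibitors that lack a classical secretion signal and work largely inside the cell or after release from it. An inhibitory serpin presents a reactive loop as bait, and the protease that cleaves the loop is trapped in a covalent complex with it. Squamous epithelia such as epidermis express several members, where they act on serine proteases and on cathepsins, and the human relatives of Serpinb3a are known as squamous cell carcinoma antigens and are abundant in psoriatic skin. The 10 genes described here are Serpinb3a, Serpinb3b, Serpinb3c, Serpinb3d, Serpinb2, Serpinb5, Serpinb1a, Serpinb7, Serpinb12 and Serpinb11, out of 22180 genes tested. They were found by gene symbol among probe sets with a single symbol, and where a gene had several, the probe set was to be chosen by its mean value over the 20 arrays. Each of 9 genes had 1 such probe set, so brightness made no choice, and Serpinb3b had none and has no value.

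The arrays measured RNA of whole abdominal skin from 4 groups of 5 mice, 1 array per mouse. Controls were zfp36 fl/fl littermates and knockouts were zfp36 fl/fl K14 cre mice, so that every mouse carried the floxed alleles and the groups differed in Cre. The K14 promoter is active in basal keratinocytes, and Zfp36 can remain in the other cells of the skin. Zfp36 encodes tristetraprolin, which binds AU-rich elements of messenger RNAs and promotes their decay. On 5 consecutive days the skin of each genotype received either imiquimod, which activates a Toll-like receptor and is used as a model of psoriasis in mice, or mock treatment. Samples were taken 4 h after the last application.

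Values are taken as log2 and span 1.41 to 13.33 over all arrays, with array medians from 4.94 to 5.04, and no detection calls were used. Zfp36 was 7.46 ± 0.22 in mock-treated controls and 5.43 ± 1.54 in mock-treated knockouts (SD, n = 5 each), and 8.0 ± 0.26 against 6.40 ± 0.85 under imiquimod. The knockout arrays lay below the controls of the same treatment without overlap, though Zfp36 did not pass the test over all genes in either treatment (adjusted p = 0.999 and 0.221). The knockouts varied widely and some lay close to the controls. For Zfp36, mock-treated knockouts ran from 3.47 to 7.12, and the lowest control was 7.22. Imiquimod-treated knockouts ran from 5.47 to 7.41, and the lowest control was 7.68. Krt14, a keratin of basal keratinocytes, lay between 10.54 and 12.31 on all arrays. By limma it was higher with imiquimod, by 0.85 in controls (adjusted p = 8e-05) and 1.27 in knockouts (adjusted p = 3.95e-07), without overlap in either. Basal markers as a set were mixed. Of 9 that include Krt14, 2 were higher and 1 lower with imiquimod in controls (median 0.078). In knockouts 3 were higher and 3 lower (median -0.114). Of all genes 6.47% were called higher and 4.37% lower in controls, and 11.1% and 9.71% in knockouts. The mean of 22 hair follicle genes set 4 arrays apart from their groups: replicate 5 of the mock-treated controls (5.88, others 9.20 to 10.15), replicate 5 of the imiquimod-treated controls (9.32, others 5.23 to 5.82), replicate 3 of the mock-treated knockouts (5.82, others 7.82 to 10.13) and replicate 1 of the imiquimod-treated knockouts (9.03, others 5.44 to 7.19). Their values are given beside the serpins they bear on. In whole skin, fewer cells of a type and less RNA per cell cannot be told apart.

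The sequences just upstream of these genes are shown for the Serpinb3 paralogs, which lie side by side yet differed in their response, and for Serpinb12, Serpinb11 and Serpinb7, whose values moved together from array to array. They are the 250 bases before the start of the RefSeq transcript in build GRCm38.p6, read on the gene's strand. RefSeq promoters were found for 9 of the 10 genes, with 11 entries. Capitals mark matches, on either strand, to letters searched for AP-1 (TGANTCA), C/EBP (TTNNGNAA), STAT (TTCNNNGAA) and the TATA box (TATAAA). In Serpinb11 an AP-1 match and a C/EBP match overlap in 1 run of capitals.
Serpinb3a: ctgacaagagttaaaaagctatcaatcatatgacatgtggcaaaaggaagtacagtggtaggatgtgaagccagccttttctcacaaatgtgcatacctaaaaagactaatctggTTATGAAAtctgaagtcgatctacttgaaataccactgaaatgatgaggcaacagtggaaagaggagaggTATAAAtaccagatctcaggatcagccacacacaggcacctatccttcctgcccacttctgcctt
Serpinb3c: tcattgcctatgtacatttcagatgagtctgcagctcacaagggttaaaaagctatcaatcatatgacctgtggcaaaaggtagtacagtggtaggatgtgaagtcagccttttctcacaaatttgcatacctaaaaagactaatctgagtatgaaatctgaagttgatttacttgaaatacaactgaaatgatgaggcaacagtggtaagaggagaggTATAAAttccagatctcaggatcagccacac
Serpinb3d: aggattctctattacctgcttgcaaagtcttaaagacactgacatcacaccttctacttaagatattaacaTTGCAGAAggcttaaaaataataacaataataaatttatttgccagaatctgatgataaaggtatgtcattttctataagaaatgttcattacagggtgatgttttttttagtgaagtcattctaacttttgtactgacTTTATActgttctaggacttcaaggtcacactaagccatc
Serpinb12: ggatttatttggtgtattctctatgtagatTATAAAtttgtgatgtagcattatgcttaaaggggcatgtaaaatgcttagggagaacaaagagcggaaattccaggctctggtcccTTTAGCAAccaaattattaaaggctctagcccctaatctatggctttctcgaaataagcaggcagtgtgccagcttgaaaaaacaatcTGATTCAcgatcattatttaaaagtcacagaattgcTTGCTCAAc
Serpinb11: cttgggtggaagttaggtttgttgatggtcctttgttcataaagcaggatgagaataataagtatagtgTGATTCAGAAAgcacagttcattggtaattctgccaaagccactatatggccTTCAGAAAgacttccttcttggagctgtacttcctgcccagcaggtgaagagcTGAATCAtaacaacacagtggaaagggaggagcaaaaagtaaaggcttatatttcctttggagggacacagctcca
Serpinb7: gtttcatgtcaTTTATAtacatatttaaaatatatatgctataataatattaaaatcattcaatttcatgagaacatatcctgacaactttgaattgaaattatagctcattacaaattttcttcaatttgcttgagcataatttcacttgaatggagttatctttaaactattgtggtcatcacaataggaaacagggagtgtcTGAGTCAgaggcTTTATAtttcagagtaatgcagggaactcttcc
These stretches lie at chr1:107052304-107052553 (minus strand) for Serpinb3a, chr1:107278372-107278621 (minus) for Serpinb3c, chr1:107083481-107083730 (minus) for Serpinb3d, chr1:106934199-106934448 (plus) for Serpinb12, chr1:107362064-107362313 (plus) for Serpinb11 and chr1:107422439-107422688 (plus) for Serpinb7.

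Upstream of Serpinb3a and Serpinb3c, 203 of 216 aligned bases were identical (94.0%), and Serpinb3a and Serpinb3b shared 211 of 226 (93.4%). Serpinb3d stood apart, with 121 of 228 aligned bases identical to Serpinb3a (53.1%), where Serpinb3a shared 55.2% to 59.8% with the members outside the Serpinb3 family. The TATA letters lay at positions -65 to -60 before the annotated start of Serpinb3a and at -31 to -26 before that of Serpinb3c, which places the annotated starts at different points of an otherwise similar stretch. The C/EBP letters TTATGAAA occurred at -135 to -128 in Serpinb3a and had no match in the Serpinb3c window. AP-1 letters were found at -45 to -39 in Serpinb7 and in the entry of Serpinb12 shown here, though not in its other entry, and at -181 to -175 and -76 to -70 in Serpinb11. Among the genes whose sequences are not shown, Serpinb2 held them at -94 to -88 in 1 entry and -181 to -175 in the other. Serpinb5 held them at -140 to -134, so they were not particular to the 3 serpins that moved together. Of 32851 RefSeq promoters of the same length, 6.75% held the AP-1 letters, 36.8% the C/EBP letters, 7.02% the STAT letters and 12.4% the TATA letters. A match describes the letters and was not tested as a binding site.

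Imiquimod raised most of these serpins in both genotypes. In controls 6 of the 9 genes with a value were higher and 0 lower, against a background of 6.47% of all genes called higher and 4.37% called lower. In knockouts 6 of 9 were higher and 0 lower, against 11.1% and 9.71%. The median difference of the 9 was 0.94 in controls and 1.25 in knockouts on the log2 scale, where the median of all genes was -0.004 and -0.002. The mock and imiquimod arrays did not overlap for 5 of the 9 in controls (5.6% of all genes were higher and 2.74% lower without overlap) and for 6 of the 9 in knockouts (7.16% and 6.53%). At an unadjusted p under 0.05, 7 of 9 passed in each genotype, where 23.9% of all genes did in controls and 31.2% in knockouts. Both sets of 6 held Serpinb3a, Serpinb12, Serpinb11, Serpinb2 and Serpinb1a, with Serpinb5 added in controls and Serpinb3d in knockouts.

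**Figure D1:**
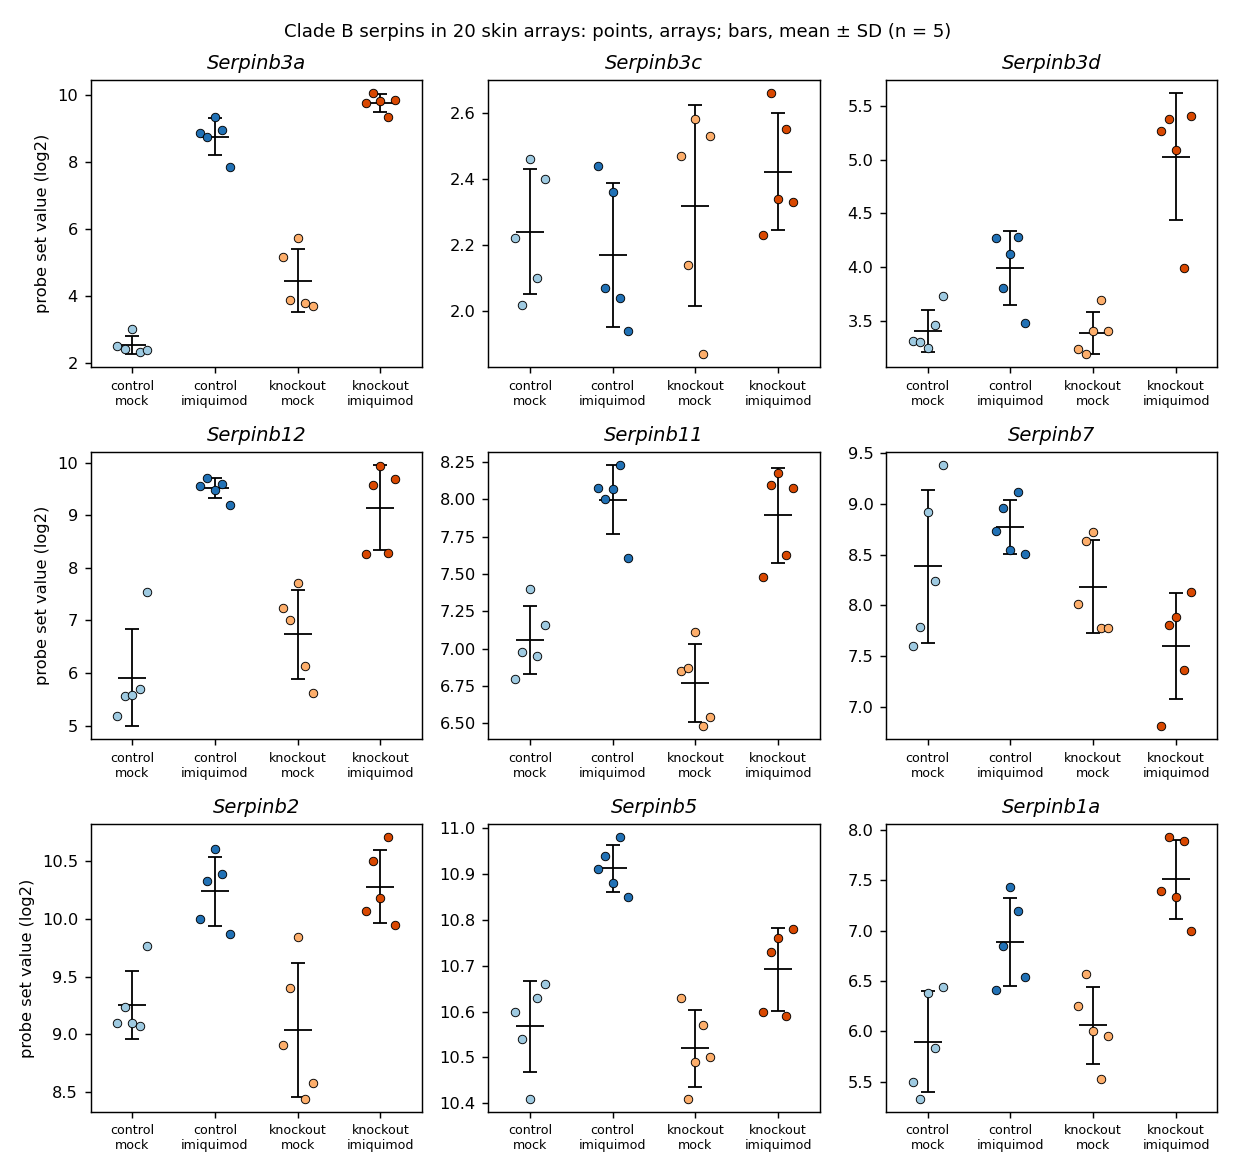
Probe set value (log2, vertical axis, with its own range in each panel) of the 9 serpins with a value, in the 4 groups; points are single arrays and bars the mean ± SD (n = 5). Serpinb3a runs from 2.32 in a mock-treated control to 10.08 in an imiquimod-treated knockout, while every Serpinb3c value lies between 1.87 and 2.66.

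Serpinb3a, an inhibitor of the squamous cell carcinoma antigen type whose relatives act on cathepsins and chymotrypsin-like proteases, had the largest rise of all 22180 genes in control skin. Its values were 2.52, 2.42, 3.0, 2.32 and 2.40 in mock-treated controls and 8.89, 8.77, 9.37, 8.96 and 7.85 in imiquimod-treated controls. The same gene read 5.18, 3.87, 5.75, 3.80 and 3.71 in mock-treated knockouts and 9.77, 10.08, 9.82, 9.36 and 9.86 in imiquimod-treated knockouts. The groups followed each other in the order mock-treated controls, mock-treated knockouts, imiquimod-treated controls and imiquimod-treated knockouts, and only the last pair overlapped, at 9.36 and 9.37. Imiquimod raised it by 6.24 ± 0.33 (SE; 95% interval 5.55 to 6.93; 75.4-fold) in controls, with an adjusted p of 1.87e-10. The rise in knockouts was 5.32 ± 0.33 (4.63 to 6.01; 39.8-fold), adjusted p = 8.35e-10, and ranked 10 of 22180 by size. The mock values of controls lie near the low end of the scale, where the size of a fold is uncertain. For the mean of 10 stressed keratinocyte markers, such as Krt6a and Sprr2d, the group averages followed the same order. Its arrays ran over 5.0 to 5.88, 5.40 to 6.12, 7.60 to 9.37 and 9.5 to 9.98. Unlike for Serpinb3a, the mock-treated genotypes overlapped, and 0 of the 10 markers were called between them (median difference 0.105). Of all genes 0.00902% were called higher and 0% lower in that comparison. With imiquimod 8 of the 10 markers rose in controls and 9 in knockouts, where 6.47% and 11.1% of all genes were called higher. Their part in the Serpinb3a result was not tested.

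Mock-treated knockouts had more Serpinb3a than mock-treated controls, with every knockout array above every control array, but the call over all genes was missed. The difference of 1.93 ± 0.33 (95% interval 1.24 to 2.62; 3.81-fold) was the largest positive difference of all 22180 genes in that comparison, with an unadjusted p of 1.05e-05 and an adjusted p of 0.0774. The mock-treated controls lay between 2.32 and 3.0, and whether the probe set was above background there was not tested, so the fold and the rank are uncertain. The difference passed in 7 of 33 alternatives, with an adjusted p from 0.0123 to 0.999 over them, the highest with only the 2 groups of the contrast. It passed with the replicate block (1.93, adjusted p = 0.0153), with array weights (1.80, adjusted p = 0.034), with hair, muscle or fat genes as a covariate (1.86, 1.92 and 1.79, adjusted p = 0.0123, 0.0295 and 0.0498), without replicate 5 of the mock-treated knockouts (2.12, adjusted p = 0.0263) and without replicate 5 of the imiquimod-treated controls, an array of another comparison that enters the shared spread (1.93, adjusted p = 0.0317). Without each other single array its adjusted p ran up to 0.31. The highest knockout value, 5.75, came from replicate 3, the mock-treated knockout array lowest in hair genes, and the next, 5.18, from replicate 1, whose hair genes read 9.91. Zfp36 in replicates 1 to 5 of the mock-treated knockouts read 5.12, 6.84, 7.12, 4.61 and 3.47. The array with the most Zfp36 thus had the highest Serpinb3a value. How Serpinb3a went with Zfp36 over these arrays was not tested. Without the 4 arrays that stood apart in hair genes the difference was 1.58, adjusted p = 0.112. Under imiquimod the knockouts exceeded the controls by 1.01 ± 0.33 (0.32 to 1.70; 2.01-fold), which did not pass (adjusted p = 0.243).

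Serpinb3d, a paralog of the same type, differed between genotypes under imiquimod. Mock-treated skin read 3.31, 3.30, 3.25, 3.46 and 3.73 in controls and 3.24, 3.19, 3.41, 3.69 and 3.41 in knockouts, so the genotypes overlapped throughout. Imiquimod-treated skin read 4.27, 3.81, 4.12, 4.28 and 3.48 in controls and 5.27, 5.38, 5.09, 3.99 and 5.41 in knockouts. Of the knockouts, 4 lay above every control and replicate 4 lay among them. Its rise was 1.64 ± 0.21 (1.19 to 2.09; 3.12-fold) in knockouts, adjusted p = 1.5e-05, and the difference in controls was 0.58 ± 0.21 (0.13 to 1.03), adjusted p = 0.0919. The knockouts exceeded the controls under imiquimod by 1.04 ± 0.21 (0.59 to 1.48; 2.05-fold), adjusted p = 0.0286. This was the only call of the 9 in that comparison, where 0.374% of all genes were called higher and 0.171% lower.

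The genotype call of Serpinb3d did not hold under several alternatives. It was lost with only the 2 groups of the contrast (adjusted p = 0.121) and without the 4 arrays that stood apart in hair genes (0.85, adjusted p = 0.166). Among single arrays it was lost without replicate 2 or 5 of the imiquimod-treated controls (adjusted p = 0.103 and 0.0865) and without replicate 1, 2, 3 or 5 of the imiquimod-treated knockouts (0.0896, 0.104, 0.0501 and 0.0555). Over all alternatives its adjusted p ran from 0.000151 to 0.166. Without replicate 4 of the imiquimod-treated knockouts, the array that read 3.99, the imiquimod difference in controls passed as well (0.58, adjusted p = 0.0106). The difference in controls passed in 6 of 32 alternatives, the others being without replicate 5 of the imiquimod-treated controls (0.71, adjusted p = 0.0336), with only the 2 groups (0.58, adjusted p = 0.0399), with array weights (0.65, adjusted p = 0.0229), with fat genes as a covariate (0.66, adjusted p = 0.0307) and without the 4 arrays (0.79, adjusted p = 0.0245). Serpinb3d lay in the dimmest 30% of genes, at the 22.4 percentile of mean values.

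Serpinb3c, the paralog with the upstream sequence closest to that of Serpinb3a among the genes with values, stayed at the bottom of the scale. Its values ran from 2.02 to 2.46 in mock-treated controls, from 1.94 to 2.44 in imiquimod-treated controls, from 1.87 to 2.58 in mock-treated knockouts and from 2.23 to 2.66 in imiquimod-treated knockouts. All 4 groups overlapped. The imiquimod difference was -0.07 ± 0.14 (95% interval -0.36 to 0.22) in controls and 0.10 ± 0.14 in knockouts, adjusted p = 0.836 and 0.688. With a mean at the 2.53 percentile of all genes, whether the probe set lay above background was not tested. Probe sets of close paralogs can share signal, and how the array separates Serpinb3a from Serpinb3b was not examined here.

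Serpinb12, an inhibitor of trypsin-like serine proteases in epithelia, had the next largest rise among these genes. Mock-treated controls read 5.18, 5.57, 5.59, 5.69 and 7.54, and imiquimod-treated controls 9.56, 9.71, 9.49, 9.60 and 9.20. Mock-treated knockouts read 7.23, 7.0, 7.71, 6.14 and 5.62, and imiquimod-treated knockouts 8.26, 9.57, 9.93, 8.28 and 9.69. Treated and untreated arrays were apart in both genotypes, and the genotypes overlapped within each treatment. The rise was 3.60 ± 0.43 (2.70 to 4.49; 12.1-fold) in controls, adjusted p = 7.54e-06, and 2.41 ± 0.43 (5.3-fold) in knockouts, adjusted p = 0.000412. Genotype made a difference of 0.83 ± 0.43 (-0.07 to 1.72) in mock-treated skin and of -0.37 ± 0.43 under imiquimod, neither called (adjusted p = 0.999 and 0.867).

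Within groups, the arrays with extreme hair follicle values often had extreme Serpinb12 values. The control that read 7.54 was replicate 5, whose hair genes were at 5.88 where the other mock-treated controls were at 9.20 to 10.15. In imiquimod-treated knockouts the 2 lowest Serpinb12 values, 8.26 and 8.28, came from the arrays with the highest hair values, 9.03 and 7.19. With the hair genes as a covariate the rise was 2.63 in controls (adjusted p = 5.27e-06) and 1.68 in knockouts (adjusted p = 0.000168), and without the 4 arrays it was 4.08 and 2.87. With skeletal muscle genes as a covariate it was 3.49 in controls and 3.44 in knockouts. None of the 22 hair genes was called in any of the 5 contrasts, though their median differences were -2.70 for imiquimod in controls and -2.01 in knockouts. At an unadjusted p under 0.05 by limma, 22 of 22 passed for imiquimod in controls, where 23.9% of all genes did. In knockouts 8 of 22 passed (31.2% of all genes), and in both genotypes 0 of the 22 estimates were above 0. The mean of 10 suprabasal keratinocyte markers ran from 9.68 to 10.66 in mock-treated controls, 10.80 to 11.19 in imiquimod-treated controls, 9.80 to 10.20 in mock-treated knockouts and 10.08 to 10.99 in imiquimod-treated knockouts. Of these markers, 7 of 10 were higher and 1 lower with imiquimod in controls, where 6.47% and 4.37% of all genes were called. In knockouts 6 were higher and 1 lower, against 11.1% and 9.71% of all genes.

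**Figure D2:**
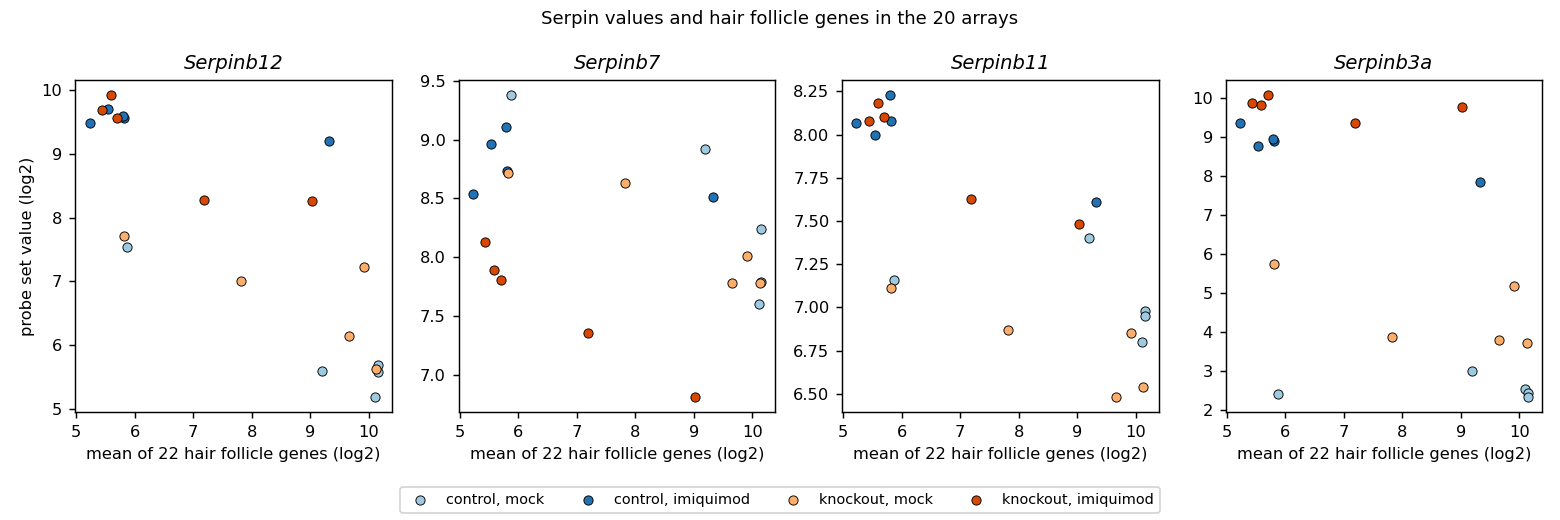
Probe set value (log2, vertical axis) of Serpinb12, Serpinb7, Serpinb11 and Serpinb3a against the mean of 22 hair follicle genes (log2, horizontal axis) in the 20 arrays, coloured by group. Arrays of 1 group spread over hair values from under 6 to over 9. The mock-treated control with the lowest hair mean has the highest Serpinb12 value of its group, 7.54.

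Serpinb11, a clade B gene of epithelia that in mice retains an inhibitory loop, rose by similar amounts in both genotypes. Mock-treated controls read 6.80, 6.98, 7.40, 6.95 and 7.16, and imiquimod-treated controls 8.08, 8.0, 8.07, 8.23 and 7.61. Mock-treated knockouts read 6.85, 6.87, 7.11, 6.48 and 6.54, and imiquimod-treated knockouts 7.48, 8.10, 8.18, 7.63 and 8.08. All treated arrays stood above all mock arrays of the same genotype. The rise was 0.94 ± 0.16 (0.62 to 1.27; 1.92-fold) in controls, adjusted p = 0.000346, and 1.12 ± 0.16 (2.18-fold) in knockouts, adjusted p = 3e-05. Its genotype differences were -0.29 ± 0.16 in mock-treated skin and -0.10 ± 0.16 under imiquimod, neither called (adjusted p = 0.999 and 0.908). With the hair genes as a covariate the rise was 0.62 in controls and 0.88 in knockouts, both called.

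Serpinb7, whose human relative is mutated in Nagashima-type palmoplantar keratosis, was not called with imiquimod in either genotype, and neither was Serpinb3c. Values were 7.60, 7.79, 8.92, 8.24 and 9.38 in mock-treated controls, 8.73, 8.96, 8.54, 9.11 and 8.51 in imiquimod-treated controls, 8.01, 8.63, 8.72, 7.78 and 7.78 in mock-treated knockouts and 6.81, 7.81, 7.89, 7.36 and 8.13 in imiquimod-treated knockouts. Under imiquimod all knockout arrays lay below all control arrays. That difference was -1.17 ± 0.30 (-1.80 to -0.54; 2.25-fold lower) and did not pass over all genes (adjusted p = 0.101). Imiquimod itself gave 0.38 ± 0.30 (-0.25 to 1.02) in controls and -0.58 ± 0.30 (-1.22 to 0.05) in knockouts, neither called (adjusted p = 0.511 and 0.2).

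The Serpinb7 values depended on which tissue covariate was used. With the hair genes as a covariate it passed as lower in knockouts under imiquimod (-1.11, adjusted p = 0.0029) and as lower with imiquimod in knockouts (-1.10, adjusted p = 0.000392), and its difference in controls changed sign to -0.30 (adjusted p = 0.481). It also passed as lower in knockouts under imiquimod without replicate 5 of the mock-treated controls (-1.17, adjusted p = 0.048), the array that read 9.38 and had low hair genes. With skeletal muscle genes as a covariate the genotype difference under imiquimod shrank to -0.31 (adjusted p = 0.601), and with fat genes it was -0.81 (adjusted p = 0.183). The imiquimod difference in knockouts turned to 0.22 with the muscle covariate (adjusted p = 0.557). Over all alternatives the genotype difference under imiquimod ran from -1.30 to -0.31, and it passed in 3 of 33. The mean of 10 skeletal muscle genes ran from 7.86 to 8.71 in imiquimod-treated knockouts and from 8.68 to 9.68 in imiquimod-treated controls. Of the 10, 1 was called lower and 0 higher in knockouts, where 0.171% and 0.374% of all genes were. At an unadjusted p under 0.05 by limma 8 of the 10 passed, where 10% of all genes did. None of the 10 estimates was above 0, and their median was -0.77. Without the 4 arrays apart in hair genes the genotype difference was -1.04 (adjusted p = 0.112).

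Serpinb2, or plasminogen activator inhibitor type 2, blocks urokinase, and its messenger carries an AU-rich element that tristetraprolin is known to bind. In controls it read 9.10, 9.24, 9.10, 9.07 and 9.77 with mock treatment and 10, 10.33, 10.61, 10.39 and 9.87 with imiquimod. In knockouts it read 8.91, 9.40, 9.84, 8.44 and 8.58 with mock treatment and 10.07, 10.50, 10.18, 10.71 and 9.95 with imiquimod. Treated arrays stood above mock arrays in both genotypes, by 0.98 ± 0.23 (0.51 to 1.46; 1.98-fold) in controls, adjusted p = 0.00677, and 1.25 ± 0.23 (2.38-fold) in knockouts, adjusted p = 0.000498. The genotypes overlapped in both treatments. Their difference was -0.22 (95% interval -0.70 to 0.25) in mock-treated skin and 0.04 ± 0.23 (-0.43 to 0.52) under imiquimod, adjusted p = 0.999 and 0.98. With the hair genes as a covariate the rise in controls was 0.55 and no longer passed (adjusted p = 0.0895).

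Serpinb5, or maspin, is a clade B member that does not inhibit proteases and is expressed by epithelial cells. It had the narrowest spread of the 9 genes, with values from 10.41 to 10.66 in mock-treated controls, 10.85 to 10.98 in imiquimod-treated controls, 10.41 to 10.63 in mock-treated knockouts and 10.59 to 10.78 in imiquimod-treated knockouts. Imiquimod-treated controls stood above the other 3 groups without overlap. The rise in controls was 0.34 ± 0.067 (0.20 to 0.48; 1.27-fold), adjusted p = 0.00176. In knockouts the difference was 0.17 ± 0.067 (0.03 to 0.31), adjusted p = 0.0786, and it passed with quantile normalization (0.23, adjusted p = 0.00917), median centring (0.21, adjusted p = 0.0337) or array weights (0.19, adjusted p = 0.0411). The knockouts lay below the controls under imiquimod by a difference of -0.22 ± 0.067 (-0.36 to -0.08), which did not pass (adjusted p = 0.193).

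Serpinb1a, related to the human inhibitor of neutrophil elastase and cathepsin G, is made by neutrophils as well as by epithelium. Mock-treated controls read 5.50, 5.33, 6.38, 5.83 and 6.44, and imiquimod-treated controls 6.41, 6.85, 7.44, 7.20 and 6.54. Mock-treated knockouts read 6.25, 6.57, 6.0, 5.53 and 5.95, and imiquimod-treated knockouts 7.40, 7.93, 7.34, 7.89 and 7.0. The treated and mock arrays met only in controls, where 6.41 lay below 6.44. Its rise was 0.99 ± 0.25 (0.47 to 1.51; 1.99-fold) in controls, adjusted p = 0.0124, and 1.45 ± 0.25 (2.74-fold) in knockouts, adjusted p = 0.00028. The difference between genotypes was 0.16 in mock-treated skin and 0.62 ± 0.25 (0.11 to 1.14) under imiquimod, and neither passed (adjusted p = 0.999 and 0.365). With the hair genes as a covariate the rise in controls was 0.72 and missed the threshold (adjusted p = 0.105).

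Some neutrophil markers rose in the same contrasts as Serpinb1a. The mean of 12 markers ran from 4.30 to 4.47 in mock-treated controls, 4.70 to 5.48 in imiquimod-treated controls, 4.35 to 4.67 in mock-treated knockouts and 5.69 to 6.84 in imiquimod-treated knockouts. Imiquimod raised 3 of the 12 in controls and 6 in knockouts, and 2 were higher in knockouts under imiquimod, where 6.47%, 11.1% and 0.374% of all genes were called higher. The granule genes Elane, Camp and Ngp stayed between 3.10 and 4.85 on all arrays, while Cxcr2, a chemokine receptor, read 4.92 to 5.79 with mock treatment and 6.85 to 8.48 with imiquimod. The part of neutrophils in the Serpinb1a rise was not tested.

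**Figure D3:**
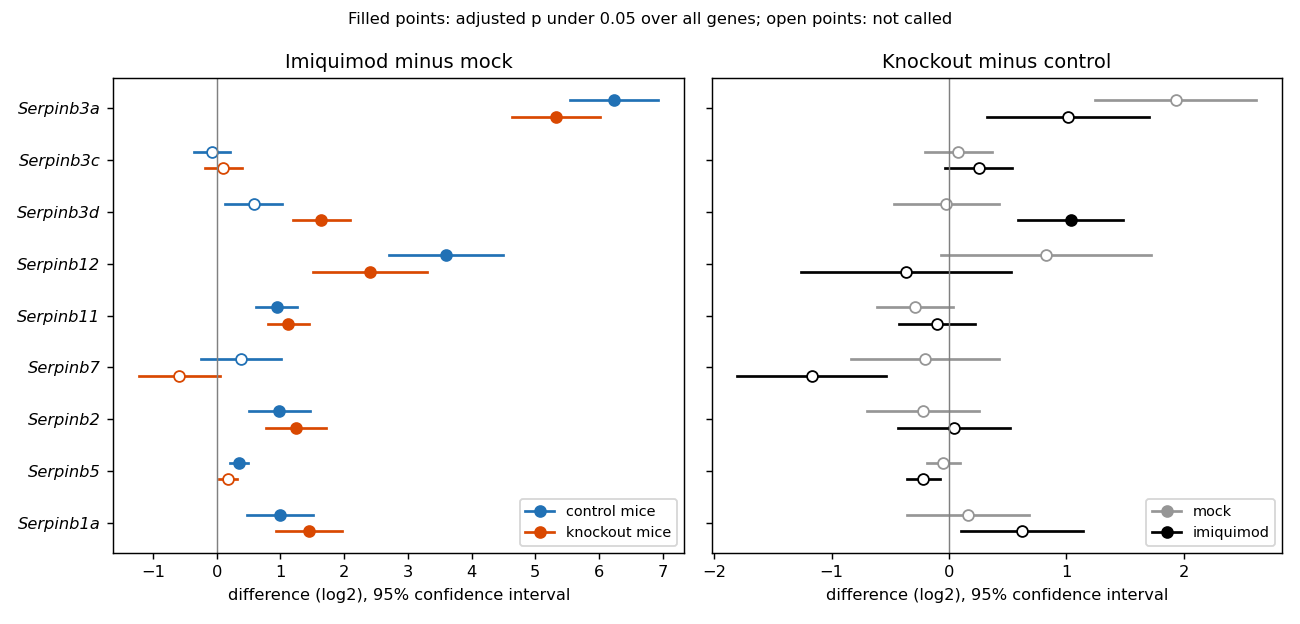
Differences (log2, horizontal axis) with 95% confidence intervals for the 9 serpins, imiquimod minus mock on the left and knockout minus control on the right; filled points passed an adjusted p of 0.05 over all genes and open points did not. Serpinb3a lies farthest to the right on the left side (6.24 and 5.32), and Serpinb3d under imiquimod is the only filled point on the right side (1.04).

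Genotype in mock-treated skin gave 0 calls among the 9 genes, higher or lower, by limma with Benjamini-Hochberg adjustment. Of all genes 0.00902% were called higher and 0% lower. At an unadjusted p under 0.05 there was 1 gene, Serpinb3a, where 3.19% of all genes passed that level, and Serpinb3a was also the only serpin of the 9 whose genotypes did not overlap (0.189% of all genes were higher without overlap). The median difference of the 9 was -0.02, with all genes at 0.006.

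In imiquimod-treated skin the median was 0.04, with all genes at 0.006. At an unadjusted p under 0.05, 5 of 9 genes passed, where 10% of all genes did: Serpinb3d, Serpinb3a and Serpinb1a had higher values in knockouts, and Serpinb7 and Serpinb5 lower ones. The genotypes did not overlap for 2 of them, Serpinb7 and Serpinb5, which were both lower in knockouts (1.17% of all genes were lower without overlap).

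The difference between the imiquimod responses of the genotypes was tested directly, with 0 of 9 genes called higher or lower by limma, against 0.018% of all genes higher and 0% lower. At an unadjusted p under 0.05, 2 of 9 passed (6.75% of all genes): Serpinb3d with 1.06 ± 0.30 (0.43 to 1.69; adjusted p = 0.498) and Serpinb7 with -0.97 ± 0.43 (-1.86 to -0.07; adjusted p = 0.723). Serpinb3d passed over all genes without replicate 4 of the imiquimod-treated knockouts (1.32, adjusted p = 0.0151). Serpinb3a had -0.92 ± 0.47 (-1.90 to 0.06; adjusted p = 0.744) and Serpinb12 -1.19 ± 0.61 (-2.46 to 0.07; adjusted p = 0.746), both with the larger rise in controls and intervals that include 0. With skeletal muscle genes as a covariate the difference was -0.08 for Serpinb7 (adjusted p = 0.982) and -0.05 for Serpinb12 (adjusted p = 0.995), and with fat genes -0.41 and -0.45 (adjusted p = 0.982 for each). The contrasts share arrays with each other, and their values are given side by side without a test of their likeness.

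On chromosome 1 the clade B genes follow the order Serpinb5, Serpinb12, Serpinb13, Serpinb3a, Serpinb3d, Serpinb3b, Serpinb3c, Serpinb11, Serpinb7, Serpinb2, Serpinb10 and Serpinb8 in RefSeq, and Serpinb1a lies on chromosome 13. Neighbours differed widely in their response. Serpinb13, an inhibitor of lysosomal cathepsins between Serpinb12 and Serpinb3a, had 0.04 in controls (adjusted p = 0.927) and fell by 0.65 in knockouts (adjusted p = 0.00679), while the genes on either side of it rose in both. Serpinb8, at the end of the row, rose by 0.51 in controls (adjusted p = 0.0203) and had 0.10 in knockouts (adjusted p = 0.708).

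**Figure D4:**
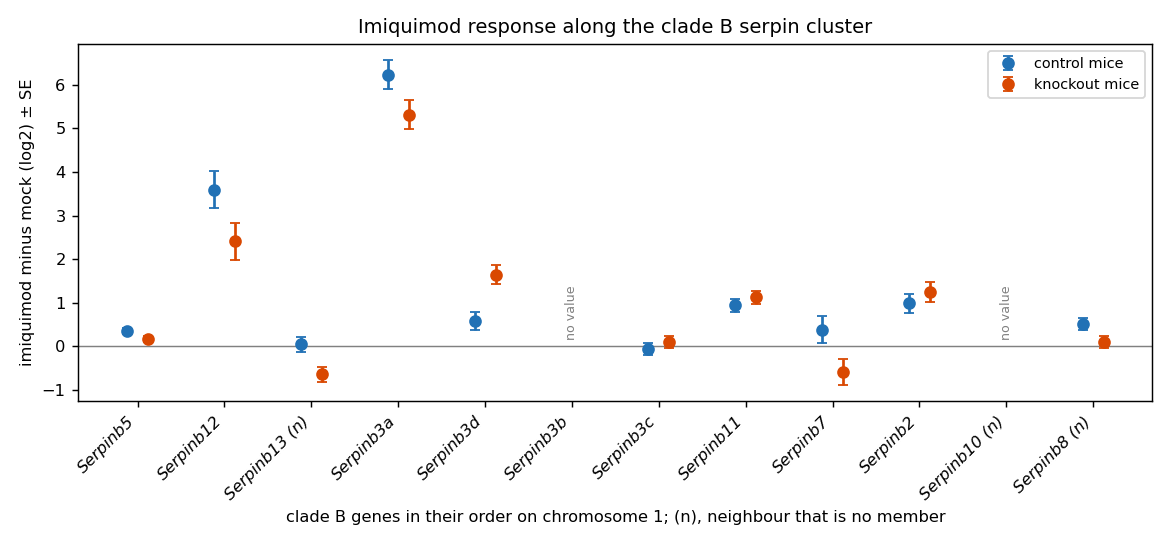
Imiquimod minus mock (log2, vertical axis) ± SE for the 12 clade B genes of chromosome 1 in their order (horizontal axis, not to distance), in control and knockout mice; (n) marks neighbours outside the 10 genes. Serpinb12 and Serpinb3a stand highest, with Serpinb13 between them at 0.04 in controls and -0.65 in knockouts; Serpinb3b and Serpinb10 have no value.

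Of the other clade B serpins, 16 of 18 had a value. With imiquimod 3 were higher and 1 lower in controls (median 0.12), and 1 was higher and 2 lower in knockouts (median -0.01). Over all genes 6.47% were called higher and 4.37% lower in controls, and 11.1% and 9.71% in knockouts, so the counts in knockouts are near the background. Serpinb6c, a relative of the cathepsin G inhibitor Serpinb6a, rose by 1.53 in controls (adjusted p = 2.53e-05) and by 1.88 in knockouts (adjusted p = 1.22e-06). Serpinb6e fell by 0.99 (adjusted p = 0.0224) and by 0.85 (adjusted p = 0.0307). By genotype 0 of 16 passed in either treatment, with 1 at an unadjusted p under 0.05 in mock-treated skin and 3 under imiquimod, where 3.19% and 10% of all genes passed that level. Of all genes 0.00902% were called higher and 0% lower by genotype in mock-treated skin, and 0.374% and 0.171% under imiquimod. The largest genotype differences among the 16 were those of Serpinb6d, with 0.89 (adjusted p = 0.999) in mock-treated skin and -0.90 (adjusted p = 0.247) under imiquimod.

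Other protease inhibitors of the skin moved in both directions. Of 18 with a value, 5 were higher and 2 lower with imiquimod in controls (median -0.02), and 6 higher and 4 lower in knockouts (median -0.15). The shares of all genes called higher and lower were 6.47% and 4.37% in controls, and 11.1% and 9.71% in knockouts. Slpi, a secreted inhibitor of neutrophil elastase, rose by 1.54 in controls (adjusted p = 0.000111) and 2.30 in knockouts (adjusted p = 5.48e-07), and was higher in knockouts under imiquimod by 1.03 (adjusted p = 0.0453). Serpina3n, an inhibitor of chymotrypsin-like proteases, rose by 1.65 (adjusted p = 2.64e-05) and 2.05 (adjusted p = 1.08e-06). Timp3, an inhibitor of metalloproteases, fell by 0.79 (adjusted p = 0.00075) and 1.51 (adjusted p = 2.48e-07). Wfdc12 was the other inhibitor higher in knockouts under imiquimod, by 0.66 (adjusted p = 0.0437), where 0.374% of all genes were called higher. In mock-treated skin 0 of 18 passed by genotype, where 0.00902% of all genes were called higher and 0% lower.

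Among 30 proteases with a value, imiquimod raised 9 and lowered 2 in controls (median 0.32) and raised 13 and lowered 2 in knockouts (median 0.34). Of all genes 6.47% were called higher and 4.37% lower in controls, and 11.1% and 9.71% in knockouts. The counts of lowered proteases are near that background. The kallikreins Klk6 and Klk13, secreted trypsin-like proteases of the epidermis, rose most, by 3.47 and 3.14 in controls (adjusted p = 1.79e-09 and 2.43e-08). In knockouts the rises were 3.5 for Klk6 and 4.19 for Klk13 (adjusted p = 9.93e-10 and 3.05e-10). Klk14 and Klk13 were higher in knockouts under imiquimod, by 1.30 and 1.10 (adjusted p = 0.0117 and 0.0446), where 0.374% of all genes were called higher. The cathepsin Ctsb, a lysosomal cysteine protease, fell by 0.57 in controls (adjusted p = 0.00667) and 0.37 in knockouts (adjusted p = 0.0484), and Plat, the tissue plasminogen activator, fell by 0.44 and 0.57 (adjusted p = 0.0343 and 0.00323). By genotype in mock-treated skin 0 of 30 passed, where 0.00902% of all genes were called higher and 0% lower. The smallest p belonged to Klk6, with 0.50 (adjusted p = 0.999).

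The genes whose values were most like each serpin over the 20 arrays are given by Pearson's r as a description, since the arrays share groups, treatment and hair content. For Serpinb3a they were Chil1 (0.987), Gsdmc (0.982) and Il1a (0.978). Serpinb12 was nearest to Krt1 (0.987), Lce1f (0.987) and Hrnr (0.986), a keratin and envelope proteins of the differentiated epidermis. Serpinb11 was nearest to Elovl4 (0.963), Rnf11 (0.962) and Car13 (0.96), and Serpinb2 to Timm23 (0.947), Slc16a1 (0.946) and Hint1 (0.943). Serpinb5 went with Map2k4 (0.931), Serpinb1a with Tram1 (0.945) and Serpinb7 with Cobl (0.947).

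Deviations from the group means, which leave out the group differences, gave another set. Serpinb12 stayed near Hrnr (0.954) and Lce1f (0.953), and Serpinb7 was nearest to Mboat2 (0.968) and Il20rb (0.961). Serpinb2 was nearest to Morrbid (0.895), Serpinb11 to Entpd5 (0.93) and Serpinb3a to Nus1 (0.839). Among the serpins themselves, the deviations of Serpinb7, Serpinb12 and Serpinb11 went together, with r of 0.81 for Serpinb7 and Serpinb12, 0.789 for Serpinb7 and Serpinb11 and 0.72 for Serpinb12 and Serpinb11, over 20 arrays that share their hair content.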

How the data were processed

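Total RNA of abdominal skin was isolated with Trizol and RNeasy columns and 200 ng per sample went into the WT PLUS labelling of Affymetrix, per the labels' protocols. A single deposited value table holds 41345 probe sets on 20 arrays, and its deposited values were taken as log2 from their range. For the log base, summarisation and normalization, the sources used here give nothing. A platform table gave 23521 probe sets 1 symbol, 1814 several and 16010 none, which left 22180 genes, each with its brightest probe set and no filter on dim genes.

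Differences were tested with limma 3.58.1 in R 4.3.3 (lmFit and eBayes, 1 mean per group, all 20 arrays, 16 residual degrees of freedom), two-sided, with Benjamini-Hochberg adjustment over all 22180 genes and a threshold of 0.05. Folds are antilogs of these differences. The fit was tested on simulated data with independent noise per gene and differences added to imiquimod-treated knockouts. Only genotype under imiquimod was read there, and the simulation held no hair or tissue content shared between genes. Promoters came from RefSeq and were aligned pairwise with Biopython 1.88.

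All 10 serpins and their values in every contrast were to be named, with the 2 largest rises and 2 largest falls past the threshold of each further list (or the 2 smallest p-values), the 3 most alike genes per serpin with a clear signal, Zfp36 and Krt14; the text gives a part of these. The members, lists and rule were chosen with earlier results of these data known, so no p-value here is independent support. Alternatives were a fit of the 2 compared groups alone, a replicate block, trended or robust priors, array weights, quantile normalization, median centring, probe sets averaged per gene, the dimmest 30% of genes left out, tissue covariates and each array left out in turn; the setting without the 4 arrays apart in hair genes was added after the data were seen.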

Additional observations from a re-analysis of the deposited data

Results flagged for a closer look

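In 36 groups of 5 values (9 serpins in 4 groups), 3 had 1 array whose gap to its nearest neighbour was large against the range of the group; chance gives about 1 in 20 groups. Serpinb3d read 3.99 in replicate 4 of the imiquimod-treated knockouts, and the other 4 read 5.09 to 5.41. Serpinb2 read 9.77 in replicate 5 of the mock-treated controls, and the other 4 read 9.07 to 9.24. Serpinb12 read 7.54 in the same array, and the other 4 read 5.18 to 5.69. That control array was also the lowest of its group in the mean of the hair follicle genes, at 5.88.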

How the results depend on the processing

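The imiquimod calls of Serpinb3a, Serpinb12 and Serpinb11 held in both genotypes under every alternative run, as did those of Serpinb2 and Serpinb1a in knockouts, Serpinb5 in controls and, where it was tested, Serpinb3d in knockouts. With hair genes as a covariate 4 serpins were higher in controls, where 6 were before, and without the 4 arrays apart in hair genes 7. The higher calls over all 22180 genes moved the same way, from 1435 to 1179 with the hair covariate and to 1810 without the 4 arrays. Knockouts against controls under imiquimod gave 0 higher calls, where Serpinb3d was 1, with only the 2 groups, with the replicate block (adjusted p = 0.0753), without the dimmest 30% of genes (which removes Serpinb3d) and without the 4 arrays; single arrays left out gave 0 to 1. It gave 1 lower call (Serpinb7), in place of 0, with array weights (adjusted p = 0.0326) or hair genes as a covariate, and 0 to 1 with single arrays left out. In mock-treated skin 1 higher call (Serpinb3a) appeared, in place of 0, with the replicate block (adjusted p = 0.0153), array weights (0.034) and hair (0.0123), muscle (0.0295) or fat genes (0.0498) as a covariate, and single arrays left out gave 0 to 1. Imiquimod in knockouts gave 1 lower call (Serpinb7) with the hair covariate, and the difference of responses 0 to 1 higher calls with single arrays left out. Over all genes the hair covariate gave 2662 lower calls for imiquimod in knockouts, where 2154 were made before. The causes of these shifts were not tested.

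Some signs turned, none of them called on either side. With array weights they were Serpinb3c for imiquimod in controls (0.0034) and Serpinb3d for genotype in mock-treated skin (0.00091). With the hair covariate they were Serpinb7 for imiquimod in controls (-0.30) and Serpinb3c in knockouts (-0.015). Without the 4 arrays they were Serpinb3c in controls (0.0275) and Serpinb3d in mock-treated skin (0.0525). For Serpinb7 with imiquimod in knockouts it was 0.22 with muscle and 0.17 with fat genes as a covariate. Genotype under imiquimod turned for Serpinb12 (0.74 with muscle, 0.12 with fat) and Serpinb11 (0.24 and 0.054). With single arrays left out, genotype in mock-treated skin ran from -0.0975 to 0.058 for Serpinb3d and from -0.3985 to 0.0465 for Serpinb7, genotype under imiquimod from -0.065 to 0.1345 for Serpinb2, and imiquimod in knockouts from -0.008 to 0.1695 for Serpinb3c.

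The replicate numbers were not used as pairs in the main fit. Deviations of same-numbered arrays correlated between -0.71 and 0.43, with 10 of 20 under -0.1 and 8 over 0.1. The hair content of single arrays enters these correlations, so they cannot decide whether the numbers pair the arrays. With the replicate block no other serpin call changed. Over all genes the block left 56 higher and 22 lower calls for genotype under imiquimod, where 83 and 38 were made before; single arrays left out gave 36 to 114 and 6 to 63, only the 2 groups left 12 and 5, muscle genes as a covariate 52 and 14, fat genes 59 and 12, and the 4 arrays left out 32 and 22, while array weights gave 144 and 98 and the hair covariate 162 and 183. In mock-treated skin 2 genes were called, 0 with only the 2 groups and 5 with the hair covariate. The arrays' number limits small differences, and Serpinb3c and Serpinb3d lie low on the scale.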

Other observations

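Serpinb6d, a clade B relative on chromosome 13 outside the 10 genes, was named after its values were seen. It rose with imiquimod in controls by 0.98 ± 0.30 (adjusted p = 0.0384) and had -0.81 ± 0.30 in knockouts (adjusted p = 0.0606). The difference of the responses was -1.78 ± 0.42, the largest in size among the 16 other clade B serpins, and did not pass over all genes (adjusted p = 0.316).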
